A study of Mus musculus with 6 samples.

Results

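The genes described here encode the enzymes and transporters that build chondroitin sulfate, dermatan sulfate, heparan sulfate and hyaluronan, collectively glycosaminoglycans. They were chosen by name for their known role in the pathway, with earlier results of these data known. They make up 40 of the 24346 gene names in the deposited files, and all 40 had a row. RNA was taken from the calvaria, the roof of the skull, of newborn mice, with the rear bones included and ear cartilage dissected away. Each of 6 libraries gave a level for every gene, in values read as FPKM, fragments scaled for transcript length and for the library's total, so levels can be set side by side between genes. In 3 libraries, labelled mutant, the animals carried floxed alleles of Pth1r together with the Prx1-Cre transgene (Prx1-Cre;Pth1rfl/fl), and in 3 control libraries they carried the floxed alleles without the transgene (Pth1rfl/fl). Pth1r encodes the receptor of parathyroid hormone and parathyroid hormone-related protein. Prx1-Cre is driven by a Prrx1 enhancer and is known to act in limb bud and part of the skull mesenchyme, and not in blood-derived cells such as osteoclasts. The labels do not tell whether a library holds 1 animal or a pool, nor whether litters differ, so p-values measure only the spread between these libraries.

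Glycosaminoglycans are long, unbranched sugar chains. Apart from hyaluronan, which is spun out at the cell surface without a protein, they are built in the Golgi on a short sugar linker attached to a core protein, extended, and then sulfated. Chondroitin sulfate fills the extracellular matrix of cartilage on the core protein aggrecan, while heparan sulfate on cell surface and basement membrane proteins binds fibroblast growth factors, Hedgehog proteins and bone morphogenetic proteins.

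Before the pathway itself, 4 facts about the libraries bear on the comparison. The targeted gene Pth1r had 127, 125 and 142 FPKM in the libraries labelled mutant, against 89.2, 93.3 and 102 FPKM in controls. It was thus not lower where the labels place the deletion (log2 difference 0.47 ± 0.08 SE, adjusted p = 0.065 in limma, exact two-sided permutation p = 0.1, the smallest that 3 against 3 allows), and directions are given by label throughout. The whole-gene value can include exons that the floxed alleles leave in place. The 12 measured cartilage markers summed to between 704 and 882 FPKM in the libraries labelled mutant and between 1311 and 2451 FPKM in controls, with control 3 the lowest of the controls. The 10 osteoclast markers summed to between 1687 and 1839 FPKM in the libraries labelled mutant, against 637 to 713 FPKM in controls. None of the cartilage and osteoclast markers was at 0 in any library. The 3 inner ear markers summed to 0.743 to 2.47 FPKM in the libraries labelled mutant and to 2.68, 79.4 and 3.20 FPKM in controls 1 to 3, so control 2 stood apart. Meninges markers were low in control 1 alone of the controls (75.5 FPKM, against 503 and 483 FPKM in controls 2 and 3), red cell markers in library 3 labelled mutant (2694 FPKM, against 11934 and 10238 FPKM in libraries 1 and 2), and neural markers were highest in library 2 labelled mutant (72.0 FPKM). Sex-linked transcripts marked 2 libraries labelled mutant and 1 control as male. In whole tissue, fewer cells of a type and less RNA per cell cannot be told apart.

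None of the 39 tested synthesis genes passed the threshold in the libraries labelled mutant, in either direction. The gene with the smallest p was Ugdh, which makes the glucuronate precursor of all these chains except keratan sulfate, at 1.37 times the control mean. Chst11 and Csgalnact1, enzymes of chondroitin sulfate, and Extl1, of the heparan family, had lower means, and Ust and Chst15, both chondroitin and dermatan sulfotransferases, higher means, none past the threshold. Without regard to sign, the median log2 difference over the 39 was 0.0761, against 0.0796 over all tested genes, and with sign it was -0.05, against 0.00147. The test was limma on log2(FPKM + 1) over the 13180 genes that averaged 1 FPKM or more, at a Benjamini-Hochberg adjusted p of 0.05. With it 0 of 39 members were called, and the background was 0.607% of all tested genes, 0.524% higher and 0.0835% lower. At an unadjusted p under 0.05 the count was 7 members, 3 higher and 4 lower, where 10.5% of all tested genes lay under that value. No other kind of test was run on the members, and among 16 other settings of the limma fit 1 called a single member, Ugdh.

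The intervals show what size of change these libraries leave room for. For 22 of the 39 members the 95% interval of the difference lay within 1.25-fold either way on the log2(FPKM + 1) scale, for 35 within 1.5-fold and for 38 within 2-fold. Over all tested genes the shares were 53.9%, 87.3% and 96.7%, near those of the members (56.4%, 89.7% and 97.4%). Such a share depends on the size of the difference as well as on the width of the interval. The 4 members whose interval reached past 1.5-fold were Csgalnact1, Chst13, Extl1 and Ugdh. The pooled within-group SD of a member had a median of 0.103 on the log2 scale, and 0.11 over all tested genes. On this scale a change is understated for genes near 1 FPKM, and Chst3 and Slc26a2, the lowest members tested, averaged 1.32 and 1.16 FPKM. Has3, at 0.348 FPKM, lay under the filter.

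**Figure D1:**
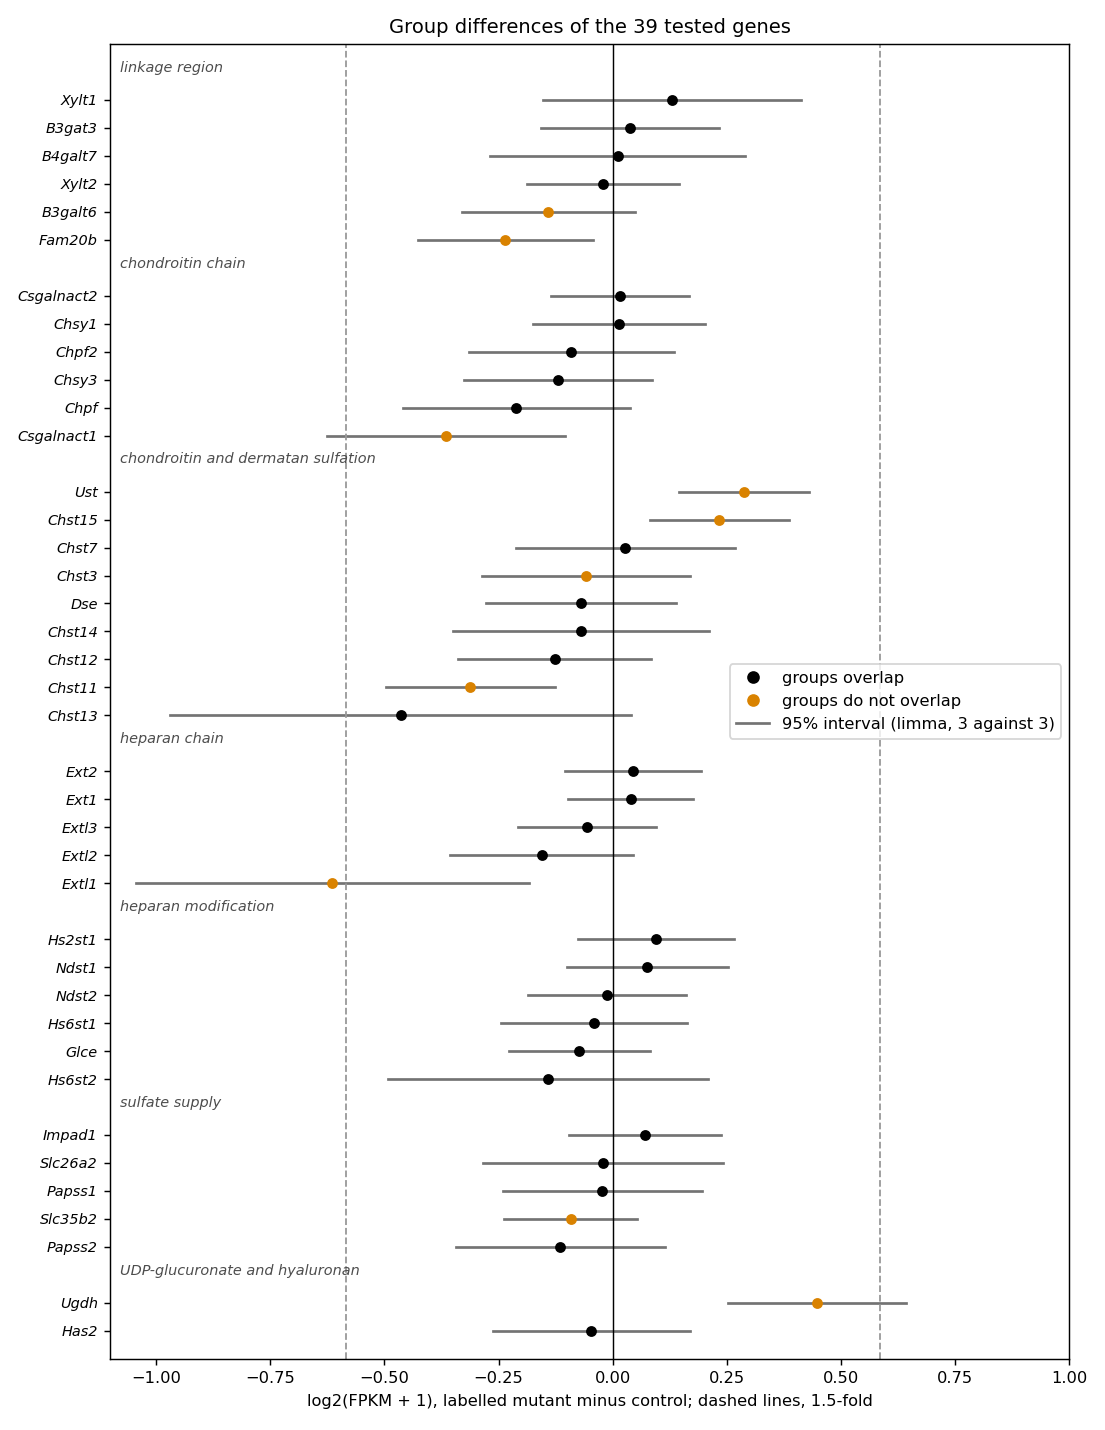
Differences in log2(FPKM + 1), libraries labelled mutant minus controls, for the 39 tested members by role, with 95% intervals from limma (3 libraries against 3) and dashed lines at 1.5-fold. Intervals of 35 members stay inside the dashed lines, and Ugdh, with the smallest p, lies at 0.45.

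The highest level of any member was that of Ugdh, with a mean of 68.5 FPKM over the 6 libraries, followed by Chpf at 62.2 and Ext2 at 48.8 FPKM. At the other end, 7 members had a mean under 3 FPKM, namely Chst13, Has2, Xylt1, Extl1, Chst3, Slc26a2 and Has3. The median over the 40 was 14.3 FPKM. Summed over all 40, the level was 698, 689 and 747 FPKM in the libraries labelled mutant, against 702, 737 and 707 FPKM in controls. The groups overlapped in this sum, with library 3 labelled mutant the highest of the 6.

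**Figure D2:**
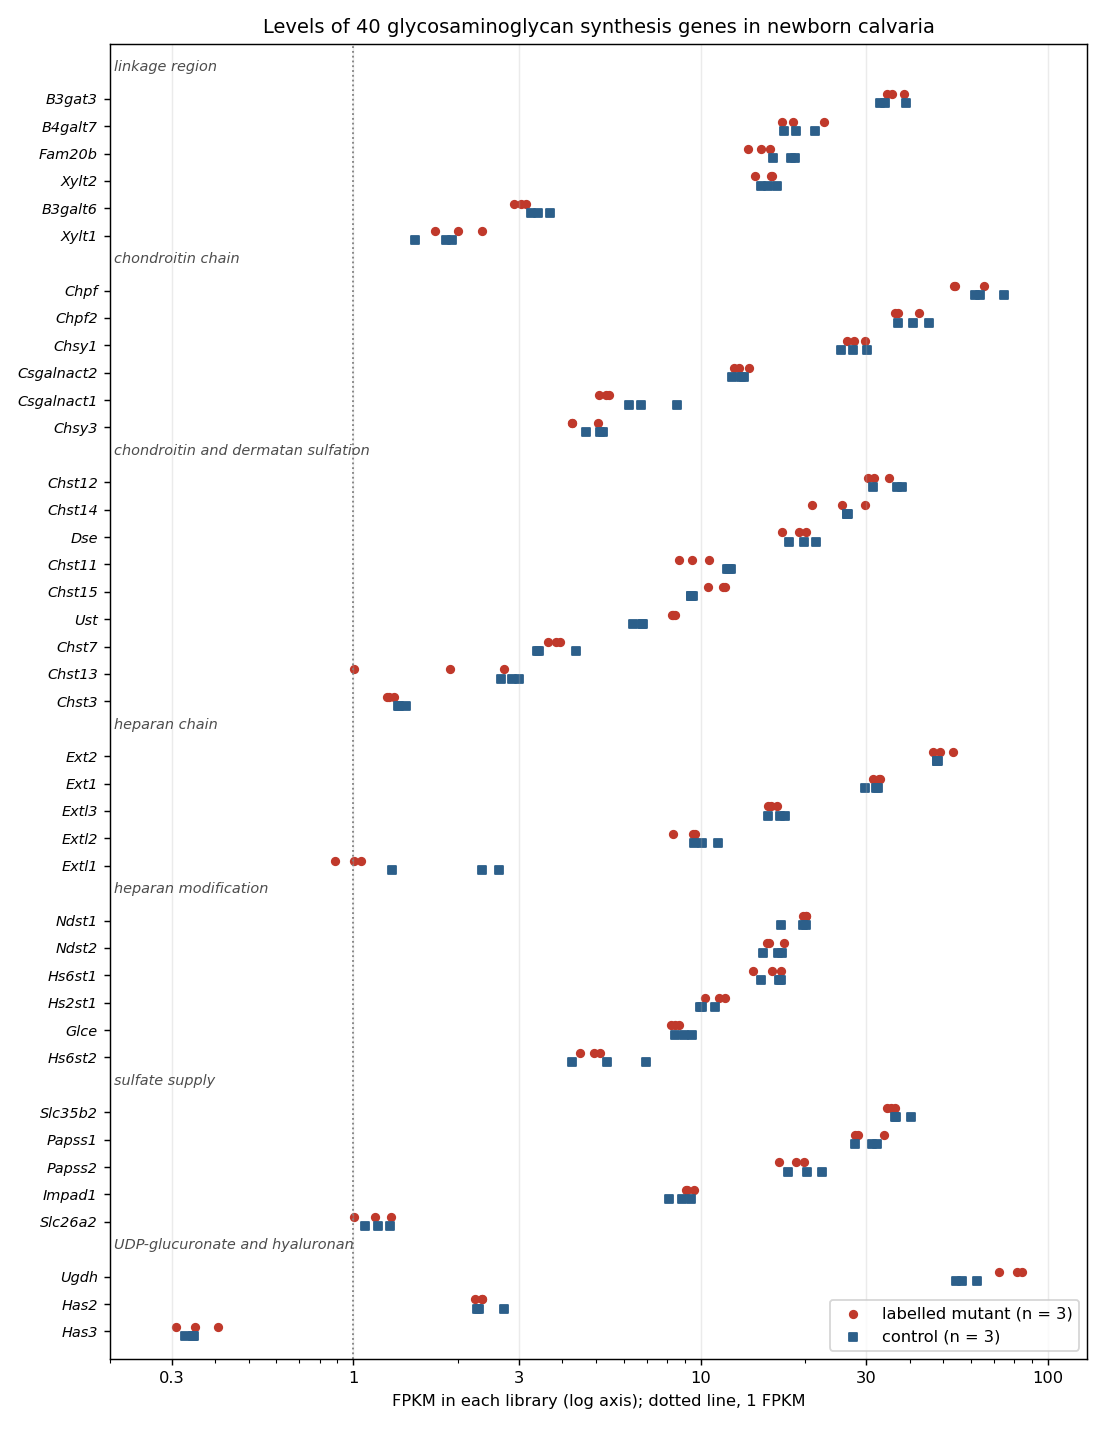
FPKM in each library (log axis) for all 40 members, grouped by role and ordered by mean within a role, with circles for the 3 libraries labelled mutant and squares for the 3 controls. Levels run from about 0.348 FPKM for Has3 to 68.5 FPKM for Ugdh, and in most rows the circles and squares intermix.

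Promoter sequence was available for 30 members, as the 250 bases before each RefSeq start site on GRCm38.p6, 37 promoters in all. The observed to expected ratio of CG pairs exceeded 0.6 in 22 of the 37, or 59.5%, against 63.3% of the 12789 promoters of tested genes and 33.95% of all promoters in the table. The share among members was thus near that of other genes measured in this tissue. Ugdh and Extl1 are shown because they stand at the ends of the member range, with the largest higher and the largest lower log2 difference. Chpf is shown for a sequence feature. CG pairs are in capitals in the promoters of Ugdh (chr5:65435843-65436092, minus strand, 22 pairs) and Extl1 (chr4:134372548-134372797, minus strand, 8 pairs), and the cAMP response element TGACGTCA is in capitals in that of Chpf (chr1:75479472-75479721, minus strand).
Ugdh: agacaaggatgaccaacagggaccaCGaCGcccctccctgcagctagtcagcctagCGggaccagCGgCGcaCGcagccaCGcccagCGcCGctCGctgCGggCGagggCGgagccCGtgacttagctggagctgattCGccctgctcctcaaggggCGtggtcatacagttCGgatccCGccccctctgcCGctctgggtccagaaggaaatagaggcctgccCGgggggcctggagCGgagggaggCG
Extl1: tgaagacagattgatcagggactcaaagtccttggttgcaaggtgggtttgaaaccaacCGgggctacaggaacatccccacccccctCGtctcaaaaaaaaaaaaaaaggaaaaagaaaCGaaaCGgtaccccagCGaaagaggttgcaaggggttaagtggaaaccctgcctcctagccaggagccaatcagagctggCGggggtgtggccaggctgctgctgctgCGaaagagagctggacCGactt
Chpf: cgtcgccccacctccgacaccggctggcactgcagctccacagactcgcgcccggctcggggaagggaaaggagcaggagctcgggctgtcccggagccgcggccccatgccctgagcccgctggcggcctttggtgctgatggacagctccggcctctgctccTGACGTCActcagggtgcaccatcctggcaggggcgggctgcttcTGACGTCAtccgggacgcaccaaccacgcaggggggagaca
The ratio of CG pairs was 0.735 in the Ugdh promoter and 0.457 in that of Extl1. These windows rest on RefSeq start sites, and GENCODE M21 on GRCm38 places the starts elsewhere. Its minus-strand spans are chr5:65413221-65435949 for Ugdh and chr4:134356372-134383850 for Extl1. The Extl1 window lies wholly inside that span, and the Ugdh window in part. The element TGACGTCA, which reads the same on both strands and is bound by CREB, a factor activated downstream of receptors that raise cAMP as Pth1r does, stood in 1 of the 37 member promoters. It occurred there, in the Chpf promoter, at 2 places, beginning 86 and 41 bases before the RefSeq start site. GENCODE M21 places Chpf at chr1:75474569-75479307, minus strand, with its start further downstream, so both distances are larger by that annotation. Of the promoters of tested genes, 2.56% held the element at least once and 0.0704% held it more than once. A match of letters describes the window and is not evidence of binding. The shorter TGACG, searched on both strands and including the full element, was in 10 of 37 member promoters, 27.0%, and in 25.9% of promoters of tested genes. The promoters of Chsy3, Csgalnact1, Ext1, Extl3, Has2, Has3, Impad1, Ndst1, Slc26a2 and Xylt1 were not used.

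The linker that joins chain to protein is made by 6 members, and none passed. Xylosyltransferases add the first sugar, and of the pair Xylt2 averaged 15.6 FPKM and Xylt1 1.89 FPKM over the 6 libraries. B4galt7 and B3galt6 add the next sugars, galactoses, and averaged 19.3 and 3.24 FPKM. B3gat3, which adds the closing glucuronate, was the most abundant of the role at 34.5, 35.5 and 38.6 FPKM in the libraries labelled mutant, against 32.8, 39.1 and 33.9 FPKM in controls. Its values overlapped fully, with a log2 difference of 0.04 whose sign changed in 3 of the other settings. Fam20b, the kinase that phosphorylates the xylose of the linker, had 15.0, 15.9 and 13.7 FPKM in the libraries labelled mutant and 18.2, 18.7 and 16.1 FPKM in controls. All 3 values lay below the controls, the nearest pair by little, and the log2 difference was -0.23 ± 0.08 (SE) with an adjusted p of 0.347 in limma. B3galt6 likewise had no overlap, at 3.15, 3.04 and 2.90 FPKM in the libraries labelled mutant and 3.41, 3.68 and 3.25 FPKM in controls (adjusted p = 0.631, limma). Xylt2, B4galt7 and Xylt1 had ratios of the group means of 0.985, 1.01 and 1.15.

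Chains become chondroitin when an N-acetylgalactosamine is put on the finished linker, the step of Csgalnact1 and Csgalnact2. Csgalnact1 had 5.34, 5.11 and 5.44 FPKM in the libraries labelled mutant, against 8.54, 6.73 and 6.22 FPKM in controls. The groups did not overlap, and the controls spread more widely, control 3 lying nearest to the other group. The log2 difference was -0.36 ± 0.11 (SE) with an adjusted p of 0.268 in limma, without control 3 it was -0.45 (adjusted p = 0.286, limma), and without control 1 it was -0.25 (adjusted p = 0.372, limma). Csgalnact2, the more abundant of the pair, had means of 13.1 ± 0.648 FPKM in the libraries labelled mutant and 12.9 ± 0.534 FPKM in controls (SD, n = 3 each). The difference between the paralogs was not tested.

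Chain extension is shared by the synthases Chsy1 and Chsy3 and their partners Chpf and Chpf2. Chpf was the most abundant, at 53.7, 53.9 and 65.3 FPKM in the libraries labelled mutant and 61.9, 74.8 and 63.8 FPKM in controls. Library 3 labelled mutant lay among the controls, and the log2 difference of -0.21 (95% interval -0.46 to 0.04) did not pass (adjusted p = 0.567, limma). Without control 2 it was -0.13, and without library 3 labelled mutant -0.30. Chsy1, the synthase mutated in a human brachydactyly syndrome, averaged 27.9 ± 1.64 FPKM in the libraries labelled mutant and 27.7 ± 2.40 FPKM in controls (SD, n = 3 each), with an interval of -0.17 to 0.20 on the log2 scale. Chsy3 and Chpf2 had ratios of 0.906 and 0.937. Chpf2 shares 44.1% of its exonic bases with Smarcd3 on the opposite strand, and since no source used here tells whether the authors counted by strand, its reads cannot be fully parted from those of that gene.

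Of the 9 members that sulfate chondroitin and dermatan, or prepare dermatan for it, none passed, and groups stood apart for 4, against 16.1% of all tested genes. Chst11, which puts sulfate on carbon 4 of N-acetylgalactosamine and is required for cartilage growth in mice, had 9.47, 8.65 and 10.6 FPKM in the libraries labelled mutant, against 12.3, 11.9 and 12.04 FPKM in controls. The controls lay within a narrow band and above every library labelled mutant. Its log2 difference was -0.31 ± 0.08 (SE), a ratio of means of 0.792, with an adjusted p of 0.199 in limma. Chst13, an enzyme of the same reaction, had 1.00, 1.90 and 2.72 FPKM in the libraries labelled mutant and 2.67, 2.86 and 3.001 FPKM in controls. Library 3 labelled mutant reached into the control range, and library 1 was lowest (adjusted p = 0.531, limma). Chst12, the most abundant of the 3 enzymes for carbon 4, had 30.4, 31.6 and 34.9 FPKM in the libraries labelled mutant and 36.8, 37.9 and 31.4 FPKM in controls, where control 3 lay within the other group. Summed, these 3 genes had 40.8, 42.2 and 48.1 FPKM in the libraries labelled mutant, against 51.8, 52.7 and 46.5 FPKM in controls, and the groups overlapped through library 3 labelled mutant and control 3. Control 3 was also the control with the lowest sum of cartilage markers, and the part of cartilage content in these values was not tested.

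Sulfation at carbon 6 is the work of Chst3 and Chst7. Chst3, mutated in a human spondyloepiphyseal dysplasia, was low, at 1.27, 1.25 and 1.31 FPKM in the libraries labelled mutant and 1.35, 1.42 and 1.35 FPKM in controls. The groups stood apart by a narrow gap, with a log2 difference of -0.06 and an adjusted p of 0.909 in limma. Chst7 averaged 3.801 ± 0.153 FPKM in the libraries labelled mutant and 3.73 ± 0.557 FPKM in controls (SD, n = 3 each). Together the pair summed to 5.20, 4.89 and 5.15 FPKM in the libraries labelled mutant, against 4.73, 5.79 and 4.78 FPKM in controls, so the level of transcripts for carbon 6 was far below that for carbon 4 in each library.

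Both members that add a further sulfate had higher values. Ust, which sulfates the uronic acid of the chain, had 8.44, 8.29 and 8.34 FPKM in the libraries labelled mutant and 6.84, 6.40 and 6.76 FPKM in controls. Chst15, which adds a second sulfate to N-acetylgalactosamine to give the chondroitin E unit, had 11.7, 10.48 and 11.6 FPKM in the libraries labelled mutant and 9.48, 9.41 and 9.38 FPKM in controls. Neither pair of groups overlapped. The log2 differences were 0.29 ± 0.06 for Ust and 0.23 ± 0.06 for Chst15 (SE), with adjusted p of 0.123 and 0.235 in limma. An antisense gene, Gm10584, covers 17.9% of the exonic bases of Chst15. Dermatan sulfate arises when Dse converts glucuronate to iduronate and Chst14 sulfates beside it, and these members had ratios of 0.95 and 0.961. Chst14 ran from 20.9 to 29.8 FPKM in the libraries labelled mutant and was even in controls, at 26.4, 26.4 and 26.6 FPKM.

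**Figure D3:**
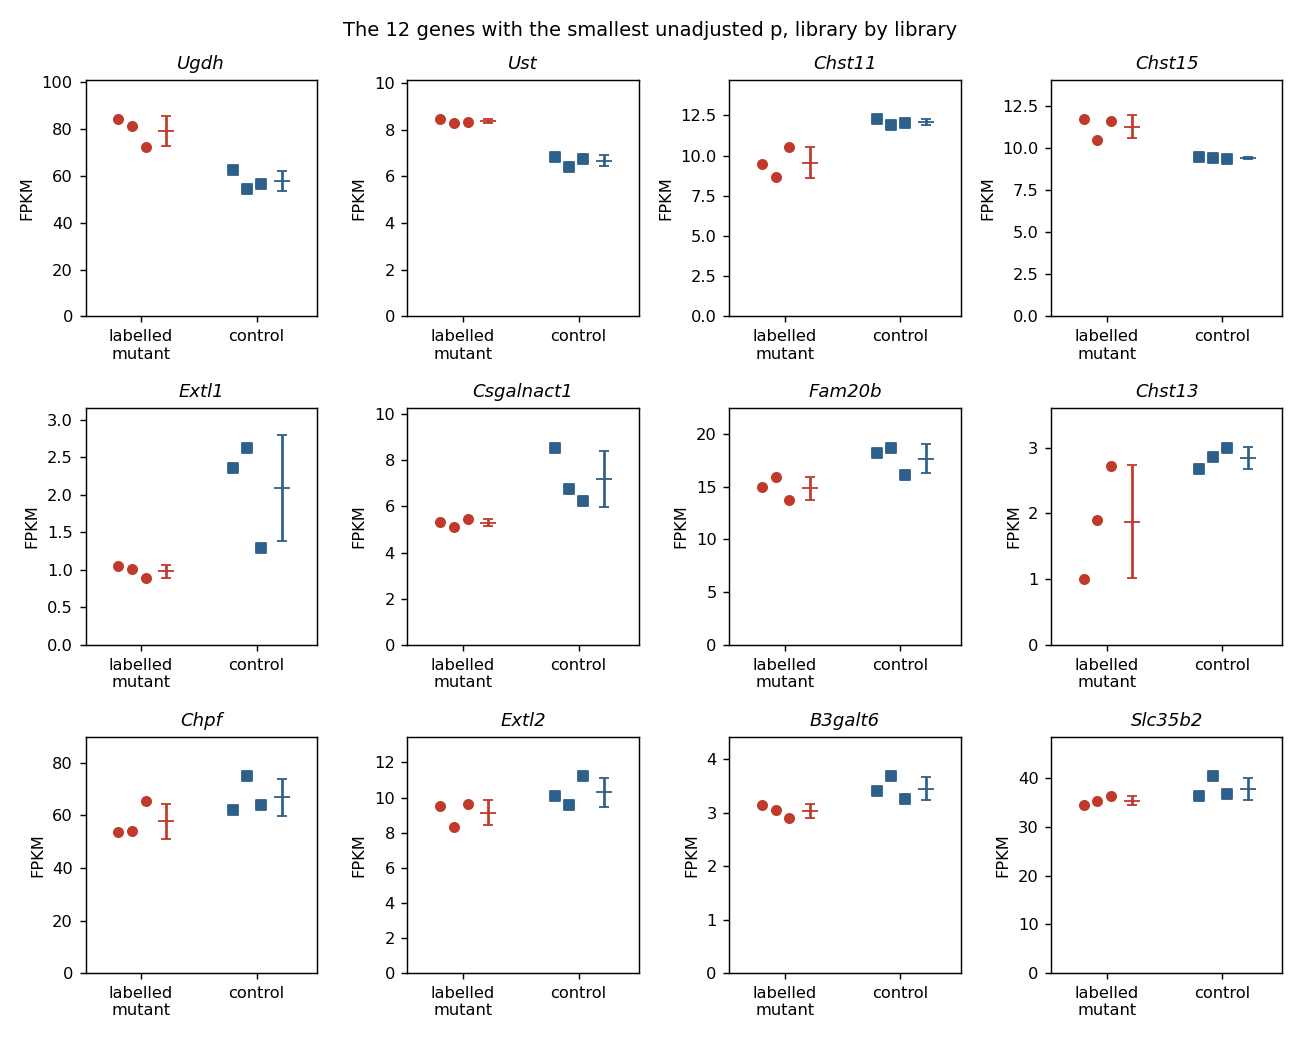
FPKM in each library for the 12 members with the smallest unadjusted p, on axes that start at 0, with the mean and SD of each group (n = 3 each) beside the points; libraries 1 to 3 run from left to right. Ugdh, Ust and Chst15 were higher in every library labelled mutant, none of the 12 passed the threshold, and Chst13, Chpf and Extl2 had overlapping groups.

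The heparan sulfate backbone is polymerised by a complex of Ext1 and Ext2, the genes of human hereditary multiple exostoses, a disease of cartilage-capped bone growths. Ext2 had 49.0, 46.6 and 53.4 FPKM in the libraries labelled mutant and 47.8, 48.3 and 48.0 FPKM in controls. Ext1 had 31.4, 32.7 and 32.9 FPKM in the libraries labelled mutant and 32.5, 29.8 and 32.1 FPKM in controls. Both genes overlapped between groups, and their intervals, -0.11 to 0.19 for Ext2 and -0.10 to 0.18 for Ext1 on the log2 scale, were among the narrowest of the members. Extl3, which starts the chain, averaged 16.04 FPKM in the libraries labelled mutant and 16.7 FPKM in controls. Extl2, whose enzyme can end it, had 9.51, 8.32 and 9.61 FPKM in the libraries labelled mutant, against 10.1, 9.57 and 11.2 FPKM in controls, with an adjusted p of 0.611 in limma.

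Extl1, a related glycosyltransferase gene, had the lowest ratio of any member. Its values were 1.05, 1.01 and 0.889 FPKM in the libraries labelled mutant and 2.35, 2.63 and 1.29 FPKM in controls. Controls 1 and 2 were well above the rest, and control 3 lay just above the libraries labelled mutant. The ratio of means was 0.47. On the log2 scale the difference was -0.61 ± 0.18 (SE), which missed the threshold (adjusted p = 0.263, limma). Without control 3 the difference was -0.82 with an adjusted p of 0.103, and without control 2 it was -0.48 with an adjusted p of 0.528, both in limma. The cartilage marker sum, which was likewise lowest of the controls in control 3 but not lowest in library 3 among those labelled mutant, was 882, 704 and 876 FPKM in libraries 1 to 3 labelled mutant, against 2441, 2451 and 1311 FPKM in controls 1 to 3, and the part of cartilage content was not tested. The mean in the libraries labelled mutant, 0.984 FPKM, was itself under the filter of 1 FPKM, so Extl1 entered the test through its level in controls.

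Modification of heparan begins with Ndst1 and Ndst2, which swap acetyl for sulfate groups, and goes on with the epimerase Glce and the sulfotransferases Hs2st1, Hs6st1 and Hs6st2. None of the 6 passed, and their log2 differences ran from -0.14 for Hs6st2 to 0.09 for Hs2st1. Ndst1, the most abundant, had 20.1, 19.8 and 20.2 FPKM in the libraries labelled mutant and 17.02, 20.2 and 19.8 FPKM in controls. Only control 1 was low, and Ndst2 was nearly level with means of 16.2 ± 1.01 FPKM in the libraries labelled mutant and 16.3 ± 1.05 FPKM in controls (SD, n = 3 each). Glce averaged 8.45 FPKM in the libraries labelled mutant and 8.95 FPKM in controls, and Hs6st1 averaged 15.8 FPKM in the libraries labelled mutant and 16.2 FPKM in controls. Hs6st2 ran from 4.49 to 5.13 FPKM in the libraries labelled mutant and, more widely, from 4.26 to 6.95 FPKM in controls.

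All sulfation draws on the activated sulfate PAPS, made from sulfate by Papss1 and Papss2 and carried into the Golgi by Slc35b2. Slc35b2 had 34.4, 35.2 and 36.3 FPKM in the libraries labelled mutant and 36.3, 40.3 and 36.6 FPKM in controls, groups apart by less than the last digit printed and not past the threshold (adjusted p = 0.691, limma). Papss1 had means of 29.96 ± 3.22 FPKM in the libraries labelled mutant and 30.4 ± 2.23 FPKM in controls (SD, n = 3 each). Papss2, known from human and mouse skeletal dysplasia, had 18.8, 16.9 and 19.9 FPKM in the libraries labelled mutant and 22.3, 20.3 and 17.9 FPKM in controls. Control 3 lay within the other group, and the log2 difference was -0.11 (95% interval -0.34 to 0.11), which ranged from -0.19 without control 3 to -0.04 without control 1 and was -0.05 without library 2 labelled mutant. Slc26a2, the sulfate transporter of the cell membrane whose loss causes diastrophic dysplasia, was near the filter with means of 1.15 ± 0.141 FPKM in the libraries labelled mutant and 1.18 ± 0.0975 FPKM in controls (SD, n = 3 each). Impad1, the Golgi phosphatase that clears the by-product of sulfation, averaged 9.27 FPKM in the libraries labelled mutant and 8.79 FPKM in controls.

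Ugdh, which oxidises UDP-glucose to UDP-glucuronate, had 84.2, 81.3 and 72.1 FPKM in the libraries labelled mutant, against 62.5, 54.3 and 56.5 FPKM in controls. Every library labelled mutant lay above every control. The means were 79.2 ± 6.30 FPKM in the libraries labelled mutant and 57.8 ± 4.25 FPKM in controls (SD, n = 3 each), and the log2 difference was 0.45 ± 0.08 (SE; 95% interval 0.25 to 0.64). It did not pass over all genes (adjusted p = 0.0936, limma), and did so in limma only with weights for the libraries (adjusted p = 0.0258), the range over the other settings being 0.0258 to 0.265. In GENCODE M21 on GRCm38 it lies at chr5:65413221-65435949, minus strand. Of the hyaluronan synthases, Has2 had means of 2.31 ± 0.0544 FPKM in the libraries labelled mutant and 2.43 ± 0.247 FPKM in controls (SD, n = 3 each). Has3 ran from 0.309 to 0.409 FPKM in the libraries labelled mutant and from 0.328 to 0.348 FPKM in controls.

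Groups did not overlap for 10 of the 39 members, 3 higher and 7 lower, which is 25.6%, against 16.1% of all tested genes (9.34% higher and 6.79% lower). The higher ones were Ugdh, Ust and Chst15, and the lower ones B3galt6, Fam20b, Csgalnact1, Chst3, Chst11, Extl1 and Slc35b2. Of the 10 none passed the threshold, and for Chst3, Slc35b2, Fam20b and B3galt6 the gap was smaller than the range within either group. Lower values were seen for 25 of the 39 members and higher ones for 14, where 49.5% of all tested genes had lower values. By role the lower values were 3 of 6 for the linker, 4 of 6 for chondroitin chains, 6 of 9 for their sulfation, 3 of 5 for heparan chains, 4 of 6 for their modification and 4 of 5 for the sulfate supply. Control 3 was the lowest control for 12 members and the highest for 12, about as often either way as among all tested genes (3878 and 3695 of 13180).

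The rest of the pathway was followed in 6 lists, likewise chosen with earlier results of these data known. Among 12 tested genes of further synthesis and editing, 0 passed, with Hs3st5, a heparan sulfotransferase, at 0.876 ± 0.102 FPKM in the libraries labelled mutant and 1.72 ± 0.0701 FPKM in controls (SD, n = 3 each; adjusted p = 0.102, limma). Like Extl1, Hs3st5 entered the test through its level in controls. Hs3st3b1, of the same family, had a ratio of 0.785, and Pxylp1, the phosphatase that acts against Fam20b, had 8.40, 8.57 and 11.5 FPKM in the libraries labelled mutant and 10.1, 12.9 and 12.2 FPKM in controls. The list had a median log2 difference of -0.20, with 10 genes lower. Of 11 keratan sulfate genes 0 passed, and St3gal1, Chst1 and B4galt4 had the smallest p, with ratios of 1.249, 1.28 and 0.907. Of 18 genes for precursors and Golgi transport 0 passed. Slc35d1, which carries UDP-sugars for chondroitin and is needed for cartilage in mice, had 4.62, 4.01 and 4.96 FPKM in the libraries labelled mutant, against 8.63, 7.13 and 5.21 FPKM in controls. The groups did not overlap and control 3 lay nearest, as for Csgalnact1 (adjusted p = 0.294, limma). Tmem165 had a ratio of 0.879, and Slc13a5, a citrate carrier counted in this list, a ratio of 1.296.

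Calls in the pathway came from breakdown and core protein genes. Of 18 tested breakdown genes, 4 rose and 0 fell. Over all tested genes, 0.524% were called higher and 0.0835% lower. Groups stood apart for 8 of the 18, all higher (44.4%), against 9.34% of all tested genes higher without overlap. Arsb, the sulfatase that removes the carbon 4 sulfate which Chst11 adds, rose to 44.6, 45.9 and 46.9 FPKM in the libraries labelled mutant, against 20.9, 22.6 and 23.8 FPKM in controls (log2 difference 1.00 ± 0.06 SE, adjusted p = 0.00172 in limma). Hexa, a lysosomal glycosidase, rose 1.36-fold and Hyal1, a hyaluronidase, 1.45-fold, with adjusted p of 0.0328 and 0.0336 in limma. Hexa and Hyal1 each missed the threshold whichever of the 6 libraries was left out, with adjusted p of 0.0776 to 0.159 for Hexa and 0.0954 to 0.16 for Hyal1 in limma. Arsb passed in all 16 other settings. The median log2 difference over the list was 0.04, with 11 genes higher and 7 lower. The 10 osteoclast markers were all higher in the libraries labelled mutant, with a median log2 difference of 1.43, and 9 passed. Calcr, which did not pass, averaged 2.24 FPKM in the libraries labelled mutant and 0.798 FPKM in controls. Calcr thus entered the test through its level in the libraries labelled mutant. All 3 hypertrophic chondrocyte markers and all 4 endothelial markers were also higher in every library labelled mutant than in any control. The same held for 9.34% of all tested genes. The endothelial ratios ran from 1.11 for Pecam1 to 1.306 for Flt1. Of the hypertrophic and endothelial markers, Mmp13, 2.61-fold higher, and Emcn, 1.305-fold higher, passed the threshold. Of 6 macrophage markers, all with higher values, groups stood apart for 2 and only 1 passed, Csf1r, 1.49-fold higher. Of 8 osteoblast markers, 7 had higher values and 1 a lower value, and 1 passed, Ibsp, 1.93-fold higher. Groups stood apart for 4 of the higher ones and overlapped for Col1a1, Col1a2 and Sp7. The lower one, Bglap, had groups apart and a ratio of 0.381, and did not pass (adjusted p = 0.217, limma). Its log2 difference was the largest of the osteoblast list in size, so these markers did not move together. The part of these cell types in the breakdown genes was not tested.

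Among 13 core proteins that carry chondroitin or dermatan chains, 1 fell, where 0.0835% of all tested genes were called lower. Epyc, a small cartilage proteoglycan, fell to 8.95, 5.83 and 8.51 FPKM in the libraries labelled mutant, against 22.1, 17.7 and 17.1 FPKM in controls (log2 difference -1.20 ± 0.16 SE, adjusted p = 0.0336 in limma). Its call was lost without any 1 library other than library 2 labelled mutant, with adjusted p up to 0.119 in limma, and it held in 8 of the 16 other settings. Acan, the aggrecan gene, had 71.5, 53.8 and 63.9 FPKM in the libraries labelled mutant and 107, 102 and 74.3 FPKM in controls, and Col9a2 had 65.2, 48.0 and 57.5 FPKM in the libraries labelled mutant and 241, 271 and 120 FPKM in controls. Neither passed (adjusted p = 0.237 and 0.0614, limma), and the list's median log2 difference was -0.12. Of the 12 cartilage markers, which include Acan and Col9a2, 11 had lower values and 3 passed, all lower, and their part in the values of the list was not tested. Of 13 core proteins with heparan chains 0 passed, the smallest p being those of Gpc6, Agrn and Sdc4 (of these, Gpc6 had the lowest ratio, 0.845), and the median was -0.04.

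**Figure D4:**
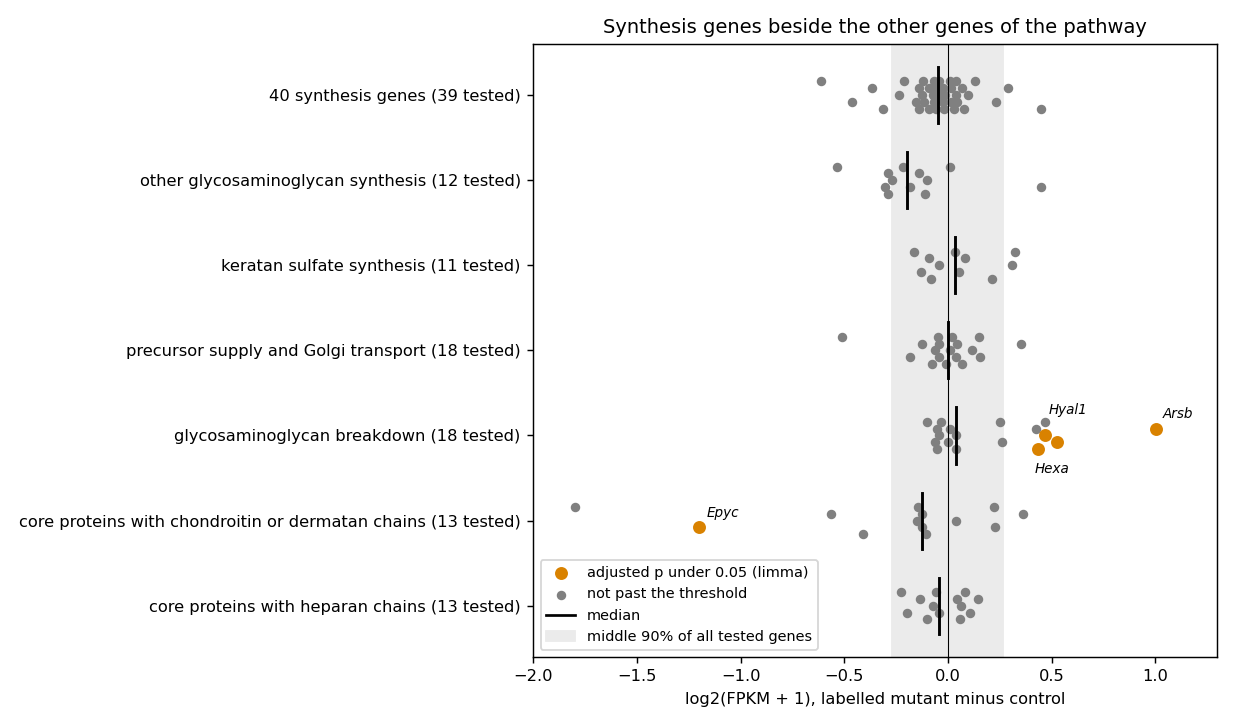
Differences in log2(FPKM + 1), libraries labelled mutant minus controls, for every tested gene of the member list and of the 6 pathway lists, with the list median as a line and the middle 90% of all tested genes shaded (-0.27 to 0.27). The 5 genes past the threshold are 4 of breakdown and Epyc, and 0 of the 39 members.

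**Figure D5:**
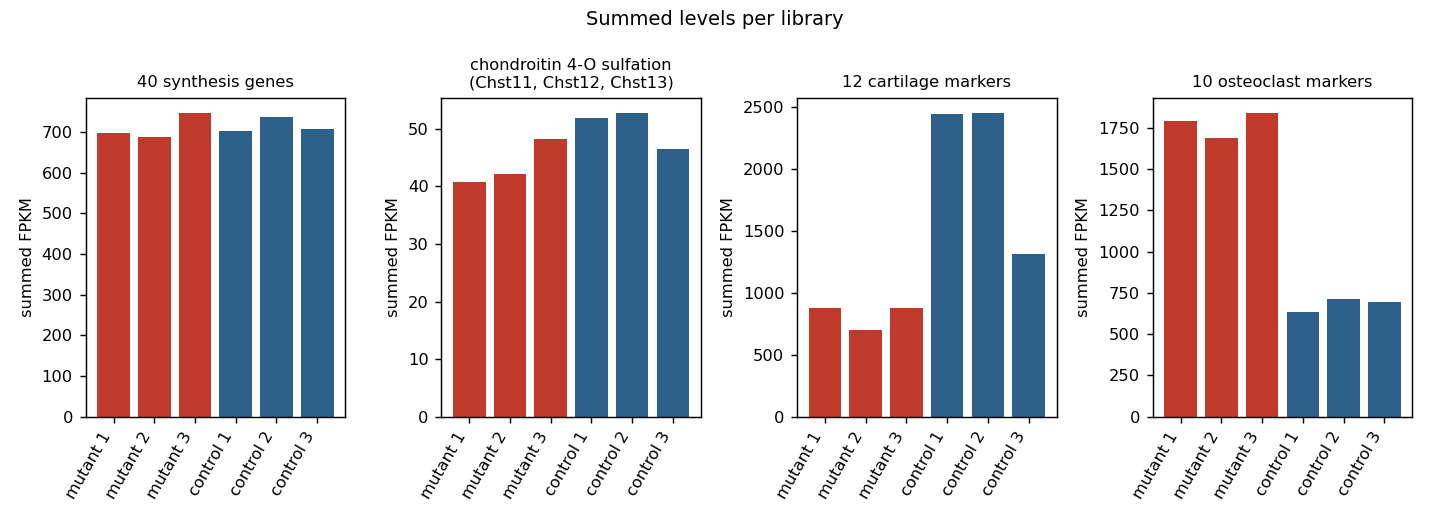
Summed FPKM per library (bars from 0) of the 40 members, of the 3 enzymes for carbon 4 of chondroitin, and of the cartilage and osteoclast markers. The sum of the members runs from 689 to 747 FPKM over the 6 libraries, while cartilage markers span 704 to 2451 FPKM and osteoclast markers 637 to 1839 FPKM.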

How the data were processed

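Calvarial RNA from 6 newborn mouse libraries was sequenced after a stranded messenger RNA preparation, per the labels' protocols. The deposited values, 1 table per library made by the authors, carry no unit in the files and were read as FPKM because Cufflinks is among the tools named. The build was mm10 and the tools were Cufflinks 2.2.1, SAMtools 0.1.19, TopHat2 2.0.13 and Bowtie2 2.2.3, per the submitters' processing notes. No source used here gives their options, the annotation, the use of strand or the depth, which is therefore unknown. Against control 1, the smallest values gave relative depths of 0.972, 0.778 and 0.703 in libraries 1 to 3 labelled mutant and of 0.845 and 0.914 in controls 2 and 3.

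The 13180 genes that averaged 1 FPKM or more entered a limma fit (version 3.58.1, R 4.3.3, eBayes with trend) of log2(FPKM + 1), 3 libraries against 3, with Benjamini-Hochberg adjustment over all of them at 0.05. Values were given by library for the 12 members with the smallest p and the most abundant member of each role, and for others by choice, in part after their values were seen. Pathway genes were named where past the threshold or among the 3 smallest p of their list, and 1 of the breakdown genes is not reported here. The members and lists were chosen with earlier results of these data known. Coordinates and exon overlaps are from GENCODE M21 on GRCm38 and promoters from RefSeq. The procedure was tested on simulated data. The other settings were another pseudocount, 2 other filters, 2 scalings, 2 variance models, library weights, a replicate block, a sex term and leaving out each library. Equal replicate numbers are not stated to mark a shared litter or day.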

Additional observations from a re-analysis of the deposited data

How the results depend on the processing

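In each of the 16 other settings the count of synthesis genes past the threshold was 0, except with library weights, where it was 1, Ugdh (log2 difference 0.50, adjusted p = 0.0258, limma); leaving out each library gave 0 throughout. Counts over all genes moved more. Against 80 (69 higher, 11 lower), limma called 50 (44 and 6) without a low-value filter, 183 (152 and 31) with library weights, 25 (23 and 2) with the replicate block, 43 (41 and 2) with a sex term, and between 16 and 44 (15 to 34 higher, 1 to 12 lower) without 1 library, fewest without library 1 labelled mutant. Same-numbered libraries did not deviate together (r = 0.0163, -0.0714 and 0.0152), and the labels state no pairing on which the block could rest. Of the breakdown genes, 4 rose, against 7 with library weights, 1 with the replicate block, 2 with a sex term and 1 to 2 without 1 library. Pth1r passed with library weights (adjusted p = 0.0458, limma). Of 711 refitted differences over 45 genes, 36 changed sign, all of members that passed in no setting, with Hs6st2 (-0.14) the farthest from 0 as reported. Leaving out 1 library also moved Chst13, Extl2, Chst12, Chsy3 and Xylt1 by over 1.5 times, to -0.23 without library 1 labelled mutant for Chst13, -0.10 without library 2 labelled mutant or control 3 for Extl2, -0.08 without control 2 and -0.21 without control 3 for Chst12, -0.19 without library 3 labelled mutant for Chsy3, and, for Xylt1, 0.20 without library 1 labelled mutant, 0.05 without library 3 labelled mutant and 0.06 without control 1. Members with smaller differences also moved by over 1.5 times in the other settings, without changing sign. The range was 0.0036 to 0.119 for Ndst1, 0.0205 to 0.115 for Impad1, 0.0570 to 0.143 for Hs2st1 and 0.0022 to 0.0628 for Ext1. For lower values it was -0.162 to -0.0173 for Chpf2, -0.125 to -0.0455 for Slc35b2 and -0.101 to -0.0238 for Extl3. It was -0.111 to -0.0389 for Glce, -0.164 to -0.0070 for Dse and -0.0951 to -0.0115 for Chst3. With library weights Hs6st1 had 0.0152, Xylt2 0.0279, Csgalnact2 -0.0227, Chsy1 -0.0363 and B4galt7 -0.0506. With a sex term B3gat3 had -0.0149, Chst7 -0.0095, Slc26a2 0.0020 and B4galt7 -0.0669, and with quantile normalization Slc26a2 had 0.0333. Over the fits that left out 1 library, the difference ran from -0.288 to 0.0104 for Hs6st2, -0.0074 to 0.0882 for Ext2, -0.188 to 0.0585 for Chst14, -0.0804 to 0.0117 for Has2, -0.0982 to 0.0271 for Hs6st1, -0.0104 to 0.113 for B3gat3, -0.0578 to 0.0270 for Xylt2, -0.0245 to 0.123 for Chst7, -0.107 to 0.0272 for Papss1, -0.0203 to 0.0445 for Csgalnact2, -0.0672 to 0.0279 for Slc26a2, -0.0455 to 0.0747 for Chsy1, -0.0628 to 0.0204 for Ndst2 and -0.0999 to 0.0906 for B4galt7. The cause was not tested. Differences near 1 FPKM, as for Extl1, Chst3 and Slc26a2, are limited by level, and with a pseudocount of 0.1 Extl1 had -0.96.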
